A study of Homo sapiens with 4 samples.

Results

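The genes described here are 38 components of WNT signalling: receptors and co-receptors, antagonists, the TCF/LEF transcription factors, and genes known as transcriptional targets. They were taken by gene symbol from a list by role. Of the 38 genes, 34 were measured, out of 19775 genes in all, and each was represented by the brightest of its probe sets annotated to exactly 1 gene (86 probe sets for the 34 genes). FZD8 and TDGF1 (now named CRIPTO) were left out because their probe sets are annotated to several genes, and EPHB2 and TCF7 were not analysed here.

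The 4 arrays measured transcript levels in AGS, an established gastric cancer line of human origin. PRMT6-KO (n = 2 arrays) is AGS in which PRMT6 was disrupted by a lentiviral Cas9 vector carrying 1 guide, followed by puromycin selection and limiting dilution to clones; control (n = 2 arrays) is AGS with wild-type PRMT6. PRMT6 adds asymmetric dimethyl groups to arginines of histones and other proteins. Which clone each knockout array came from is not labelled, nor whether the controls were clonal, carried a vector or were grown as separate cultures. The p-values therefore measure only the spread between these arrays, which may be technical. The guide is shown because it defines the knockout group.
PRMT6 guide: gacggtactggacgtgggcg

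A WNT ligand bound to a Frizzled receptor (FZD) and the co-receptor LRP5 or LRP6 stops the destruction complex of APC, AXIN1, AXIN2 and GSK3B from marking beta-catenin for degradation, and beta-catenin then acts with TCF/LEF factors on target genes. Many targets are themselves brakes on the pathway, among them AXIN2, NKD1, DKK1, RNF43, ZNRF3 and NOTUM. In the stomach, WNT and R-spondin signals maintain the stem cells of the glands, and AGS cells are known to carry a stabilizing mutation of beta-catenin.

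Values are log2 intensities, and a difference is PRMT6-KO minus control. Across genes the SD of these differences was 0.45, while the knockout arrays differed from each other with an SD of 0.17 and the control arrays with one of 0.20. PRMT6 had log2 intensities of 7.79 and 7.63 in PRMT6-KO cells, against 8.03 and 8.11 in control cells, a fall of 0.36 (SE 0.09, adjusted p = 0.043, limma). An array reads the transcript and not the edit, so this is only a partial check of the labels, and leaving out any single array ended the call. All 7 measured epithelial markers lay above the median gene's log2 intensity of 5.97, and none of the 5 leukocyte or 5 endothelial markers did. Of 7 fibroblast markers 3 were called higher, and the log2 of their summed level was 10.34 and 10.27 in PRMT6-KO cells, against 8.98 and 9.03 in control cells. Only COL1A1 of these 7 lay above the median gene (10.13 in PRMT6-KO cells, against 8.58 in control cells), and it carries the sum. The median difference of the 7 was 0.12, with COL1A2 at -0.32 and THY1 at -0.27, neither called; their part in the results below was not tested. In such bulk RNA, fewer cells of a type and less RNA per cell cannot be told apart.

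In PRMT6-KO cells 7 of the 34 measured WNT genes were higher and 6 were lower at an adjusted p below 0.05 (limma, Benjamini-Hochberg adjustment over all 19775 genes). DKK1, AXIN2, LGR4, FZD7, MYC, LGR5 and SP5 were higher, and DKK4, PROX1, FZD3, FZD2, NKD1 and FZD6 were lower. DKK1 was 3.71-fold higher and DKK4 2.00-fold lower; the other 11 called genes differed by 1.29-fold to 1.97-fold. The called share was 38.2% of the members, against 24.0% of all genes. Of the 26 members above the median gene 46.2% were called, against 40.9% of all genes above it, so among brighter genes the members' share lay near the background.

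Direction was mixed. The members' median difference was -0.08, against -0.01 over all genes. The knockout arrays lay above both control arrays for 10 members and below both for 14, and among all genes the groups did not overlap for 58.2% (29.1% in each direction). Among the 16 measured members known as transcriptional targets, whatever their role, 5 were higher (DKK1, AXIN2, MYC, LGR5 and SP5), 3 were lower (DKK4, PROX1 and NKD1) and 8 did not pass the test, a grouping made with the values known. The called share was 50%, against 24.0% of all genes and 40.9% of all genes above the median level. Of these 16 targets, 4 lay below the median gene in both groups. Whether targets differ from other genes of their level was not tested.

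**Figure D1:**
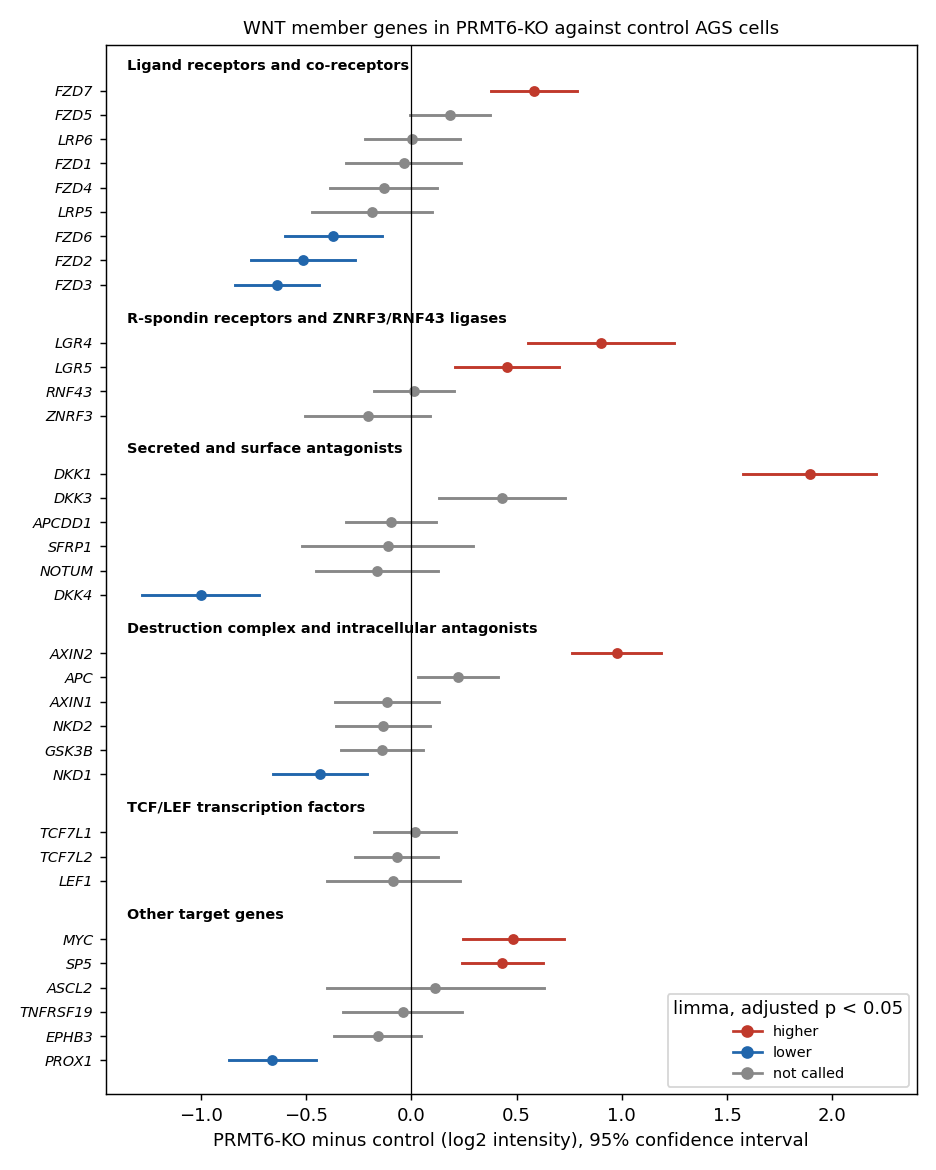
Difference between PRMT6-KO and control cells (log2 intensity, x axis) of the 34 measured WNT genes, in 6 groups by role. Points are differences of group means (n = 2 arrays each) and bars are 95% confidence intervals; the 7 red genes were called higher and the 6 blue genes lower, with DKK1 (1.89) and DKK4 at the ends.

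Among the 9 measured ligand receptors and co-receptors, Frizzled genes went both ways: FZD7 was higher, and FZD3, FZD2 and FZD6 were lower. FZD7, a receptor described in stem cells of the gut, had log2 intensities of 10.16 and 10.11 in PRMT6-KO cells, against 9.51 and 9.60 in control cells. It rose by 0.58 (SE 0.08, adjusted p = 0.0070, limma), or 1.50-fold, and was the only one of the 9 called higher. Its dimmer second probe set moved the same way without passing the test over all probe sets (0.33, adjusted p = 0.078).

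FZD3, a receptor best known from axon guidance and planar polarity, had log2 intensities of 6.67 and 6.74 in PRMT6-KO cells, against 7.32 and 7.38 in control cells. The groups were apart by far more than either pair of arrays, and the transcript fell by 0.64 (SE 0.08, adjusted p = 0.0053, limma), or 1.56-fold. All 4 of its probe sets were called lower over all probe sets, with differences from -0.85 to -0.64. No other Frizzled gene had every one of several probe sets called.

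FZD2 stood at 7.98 and 8.05 in PRMT6-KO cells, against 8.62 and 8.43 in control cells. It fell by 0.51 (SE 0.10, adjusted p = 0.018, limma); its second, dimmer probe set gave -0.14, and the mean of the 2 lost the call (-0.33, adjusted p = 0.066). FZD6, which has been linked mostly to planar polarity and to restraint of beta-catenin signalling, stood at 9.24 and 9.13 in PRMT6-KO cells, against 9.49 and 9.62 in control cells. Its fall of 0.37 (SE 0.09, adjusted p = 0.040, limma) was the weakest call of the 13 and was lost under 8 of 12 alternatives.

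The other 5 receptors did not pass the test. The difference was 0.18 for FZD5 (95% confidence interval -0.01 to 0.37; adjusted p = 0.16, and 0.048 with only genes above the median level tested, limma), -0.04 for FZD1 (-0.31 to 0.24) and -0.13 for FZD4 (-0.39 to 0.12). FZD1 lay below the median gene in both groups. The co-receptors that pair with Frizzled receptors gave 0.01 for LRP6 (-0.22 to 0.23) and -0.19 for LRP5 (-0.47 to 0.10), so changes of more than about 0.23 in LRP6 lie outside its interval. Median difference of the 9 genes was -0.13.

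LGR4 and LGR5, receptors for R-spondins, were both higher in PRMT6-KO cells, while the ubiquitin ligases RNF43 and ZNRF3, which remove Frizzled receptors from the surface and are held back by R-spondin, did not pass the test. LGR5, a marker of gland stem cells in the stomach and intestine, had log2 intensities of 12.05 and 11.87 in PRMT6-KO cells, against 11.46 and 11.55 in control cells. The groups did not overlap, the difference was 0.46 (SE 0.10, adjusted p = 0.026, limma), and the rise was 1.37-fold. With all probe sets tested, this probe set missed the threshold (adjusted p = 0.055, limma) and the dimmer second one passed it (0.66, SE 0.11, adjusted p = 0.025).

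LGR4, the more widely expressed relative of LGR5, had log2 intensities of 10.09 and 9.86 in PRMT6-KO cells, against 8.92 and 9.22 in control cells. It rose by 0.90 (SE 0.14, adjusted p = 0.0092, limma), or 1.87-fold. This rise rested on the bright probe set alone: the other 2, both below the median gene, gave 0.07 and 0.10, neither called, and the only gene-specific probe set among the 3 is the dimmest.

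RNF43 stood at 8.96 and 8.93 in PRMT6-KO cells, against 8.95 and 8.91 in control cells. Its arrays overlapped between groups, and the difference of 0.01 had a 95% confidence interval of -0.18 to 0.20. ZNRF3 stood at 9.26 and 9.15 in PRMT6-KO cells, against 9.28 and 9.55 in control cells (-0.21, interval -0.50 to 0.09).

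**Figure D2:**
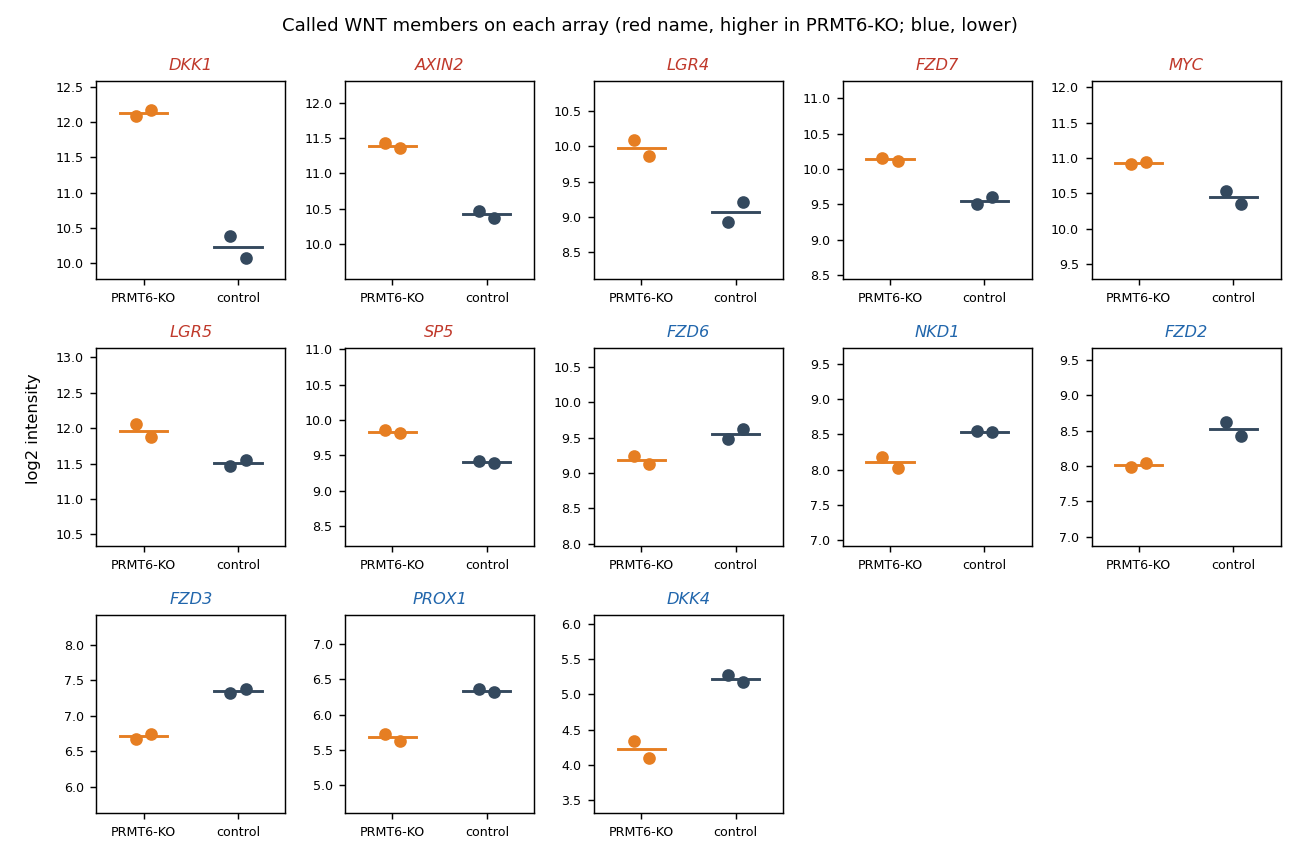
Log2 intensity (y axis, each panel spanning the same range of 2.8) of the 13 called WNT genes on each array, PRMT6-KO left and control right; points are arrays and lines group means. The groups do not overlap in any of the 13 panels, but these genes were chosen by their call on the same arrays. Over all genes the groups did not overlap for 58.2%. DKK1 shows the widest gap, with knockout arrays at 12.08 and 12.16 and control arrays at 10.39 and 10.07.

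Among the 6 secreted and surface antagonists, the 2 called genes belong to 1 family and moved in opposite directions. DKK1, a secreted protein that blocks LRP5 and LRP6 and is a target of the pathway it inhibits, had log2 intensities of 12.08 and 12.16 in PRMT6-KO cells, against 10.39 and 10.07 in control cells. It rose by 1.89 (SE 0.13, 95% confidence interval 1.58 to 2.21, adjusted p = 0.0011, limma), the largest difference of the 34 members. Of all 19775 genes 3.46% were both called and changed by 2-fold or more. DKK1 was called under all 12 alternatives, with differences of 1.56 to 2.05. It has only 1 probe set, so the alternatives that change the probe set returned the same difference.

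DKK4, another antagonist of LRP co-receptors and also described as a target, had log2 intensities of 4.35 and 4.10 in PRMT6-KO cells, against 5.27 and 5.17 in control cells. It fell by 1.00 (SE 0.11, adjusted p = 0.0038, limma). Both groups lay below the median gene's 5.97, so it is not known that either exceeded background, and the 2.00-fold change is approximate.

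The remaining antagonists did not pass the test. DKK3, a divergent member of the DKK family, stood at 3.88 and 3.85 in PRMT6-KO cells, against 3.29 and 3.58 in control cells (0.43, adjusted p = 0.055, limma), and none of its 6 dim probe sets was called. The lipase NOTUM, which strips the lipid from WNT ligands, gave -0.16 (95% confidence interval -0.45 to 0.13), the decoy receptor SFRP1 -0.11 (-0.52 to 0.29), and the membrane inhibitor APCDD1 -0.10 (-0.31 to 0.12). DKK3, SFRP1 and APCDD1 lay below the median gene in both groups.

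In the cytoplasm the 2 called genes are feedback inhibitors that differed in direction. AXIN2, a scaffold of the destruction complex and a standard readout of beta-catenin activity, had log2 intensities of 11.43 and 11.35 in PRMT6-KO cells, against 10.47 and 10.37 in control cells. The arrays of each group differed by 0.10 or less, and AXIN2 rose by 0.98 (SE 0.08, 95% confidence interval 0.76 to 1.19, adjusted p = 0.0022, limma), or 1.97-fold. Its 4 probe sets gave differences between 0.93 and 0.98, and 3 of them were called over all probe sets.

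NKD1, an inhibitor that binds Dishevelled proteins and is also a target, had log2 intensities of 8.18 and 8.03 in PRMT6-KO cells, against 8.55 and 8.53 in control cells. It fell by 0.43 (SE 0.09, adjusted p = 0.023, limma), or 1.35-fold, and all 3 of its probe sets were negative, from -0.58 to -0.28. With all probe sets tested only the middle one in brightness was called (-0.58, adjusted p = 0.025, limma).

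The other 4 genes of this group, APC, AXIN1, GSK3B and NKD2, did not pass the test. APC, the scaffold lost in many colorectal tumours, had 7.49 and 7.46 in PRMT6-KO cells, against 7.25 and 7.25 in control cells; the difference of 0.22 had an adjusted p of 0.095 (limma; 0.024 with only genes above the median level tested), and its 5 probe sets were all positive. AXIN1 gave -0.12 (95% confidence interval -0.36 to 0.13), the kinase GSK3B -0.14 (-0.33 to 0.05) and NKD2, the relative of NKD1, -0.14 (-0.36 to 0.09). The 5 probe sets of GSK3B pointed both ways, 3 positive and 2 negative, with none called.

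None of the 3 measured TCF/LEF factors was called by limma, and at an unadjusted p none lay below 0.05 either. TCF7L2, the main partner of beta-catenin in gut epithelium, had log2 intensities of 11.11 and 11.06 in PRMT6-KO cells, against 11.13 and 11.19 in control cells (-0.07, 95% confidence interval -0.27 to 0.13). Its 7 probe sets ranged from -0.07 to 0.23. TCF7L1, mostly a repressor, gave 0.02 (-0.18 to 0.21) and LEF1, itself a target in many cells, gave -0.08 (-0.40 to 0.23), both below the median gene in each group.

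Of the 6 other measured target genes, MYC and SP5 were higher and PROX1 was lower. MYC, a transcription factor that drives growth and division, had log2 intensities of 10.91 and 10.95 in PRMT6-KO cells, against 10.54 and 10.35 in control cells. It rose by 0.49 (SE 0.09, adjusted p = 0.019, limma), or 1.40-fold, on its single probe set.

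SP5, a transcription factor induced by beta-catenin in many tissues, had log2 intensities of 9.85 and 9.82 in PRMT6-KO cells, against 9.41 and 9.39 in control cells. Each pair of arrays agreed within 0.04, and SP5 rose by 0.43 (SE 0.08, adjusted p = 0.014, limma), or 1.35-fold. PROX1, a homeobox factor induced by WNT signalling in intestinal tumours, had 5.73 and 5.63 in PRMT6-KO cells, against 6.37 and 6.31 in control cells. It fell by 0.66 (SE 0.08, adjusted p = 0.0052, limma), or 1.58-fold. Its knockout arrays lay below the median gene's 5.97, so that fold change is approximate. The second PROX1 probe set gave -0.40, the 2 dimmest gave -0.04 and 0.01, and the mean of the 4 lost the call (-0.27, adjusted p = 0.060, limma).

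The other 3 genes of this group, also known from intestinal crypts, did not pass the test. The stem cell factor ASCL2 gave 0.11 (95% confidence interval -0.40 to 0.63) with overlapping arrays, below the median gene. The surface receptor TNFRSF19, also called TROY, gave -0.04 (-0.32 to 0.24), and the ephrin receptor EPHB3, which sorts crypt cells by position, gave -0.16 (-0.37 to 0.05).

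**Figure D3:**
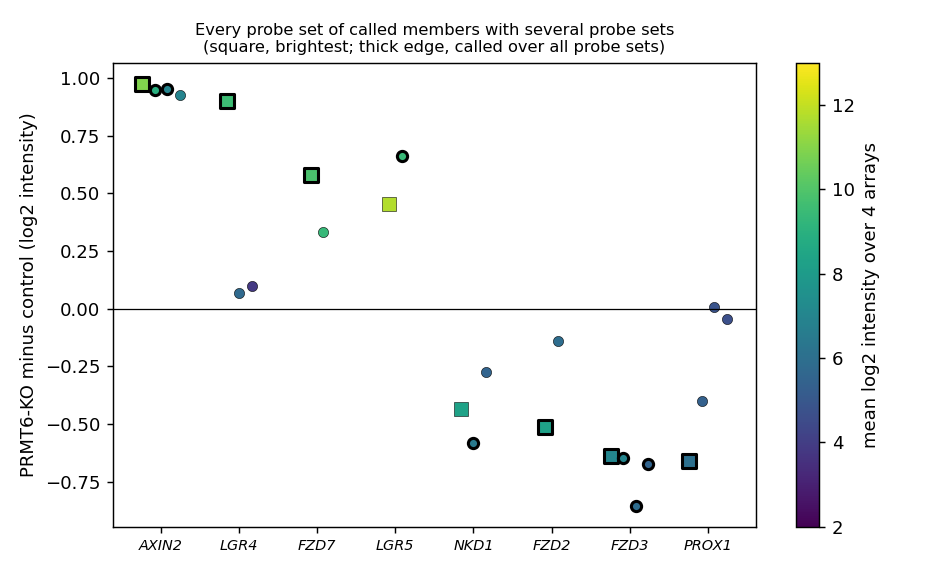
Difference between PRMT6-KO and control cells (log2 intensity, y axis) for every probe set of the 8 called WNT genes with several probe sets; squares mark the brightest, thick edges a call over all probe sets, and colour the mean log2 intensity. AXIN2 and FZD3 probe sets lie together at 0.93 to 0.98 and -0.85 to -0.64, whereas the LGR4 and PROX1 probe sets spread from 0.07 to 0.90 and from -0.66 to 0.01.

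The sequence just upstream of the start site was compared for the members with an entry in the RefSeq promoter table (GRCh38.p14). Windows of 250 bases were searched on both strands for CTTTGAA and CTTTGAT, letters typical of TCF/LEF binding sites that do not overlap each other. Of the 18 measured members with a window, 2 held a match, or 11.1%, and of all genes with a window 7.24% did. The 2 members were SP5 and DKK1, both called higher. LGR4, the third called member with a window, held none. The other called members, among them every one called lower, had no window and were not searched. A match is only a run of letters and was not tested as a binding site. The 2 windows are shown because these genes rose and hold the matches, in capitals (TTCAAAG is CTTTGAA read on the opposite strand).
SP5 chr2:170715087-170715336 (+): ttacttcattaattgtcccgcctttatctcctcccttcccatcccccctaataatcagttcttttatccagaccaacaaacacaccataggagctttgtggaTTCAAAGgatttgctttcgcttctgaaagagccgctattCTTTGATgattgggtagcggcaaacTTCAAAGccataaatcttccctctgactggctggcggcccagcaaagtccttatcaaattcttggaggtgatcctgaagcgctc
DKK1 chr10:52314031-52314280 (+): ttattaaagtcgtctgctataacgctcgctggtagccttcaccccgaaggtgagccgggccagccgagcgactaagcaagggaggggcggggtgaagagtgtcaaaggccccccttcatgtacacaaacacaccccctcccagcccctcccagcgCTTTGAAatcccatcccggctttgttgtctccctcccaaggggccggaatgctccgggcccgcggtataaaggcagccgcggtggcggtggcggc
SP5 held 3 matches, beginning 148, 109 and 84 bases before the start site, and DKK1 held 1, beginning 95 bases before it.

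The rest of the pathway was read from a list of 95 further genes, of which 90 were measured: 10 were higher and 18 lower, 31.1% called against 24.0% of all genes, with a median of 0.00. Beta-catenin itself, CTNNB1, did not pass the test (0.06, SE 0.09, adjusted p = 0.69, limma). In the relay from receptor to beta-catenin, 1 of 18 genes was higher and 4 were lower. The tankyrases TNKS2 and TNKS, which mark axin for degradation, each fell by 0.73 (SE 0.09; adjusted p = 0.0056 for TNKS2 and 0.0051 for TNKS, limma). The Dishevelled gene DVL1 fell by 0.51 (SE 0.09, adjusted p = 0.015, limma). The fourth was CSNK1A1, a casein kinase that primes beta-catenin for degradation, which fell by 0.38 (SE 0.08, adjusted p = 0.021, limma). With all probe sets tested the CSNK1A1 probe set used here missed the threshold (adjusted p = 0.0501, limma), as did most of the gene's 13 probe sets. The Dishevelled binder DACT1 was higher (0.85, SE 0.22, adjusted p = 0.044, limma), at a level below the median gene. Its control arrays stood apart at 2.94 and 3.55, and its call held under 5 of 11 alternatives. TNKS was no longer called when its 4 probe sets were averaged (-0.15, adjusted p = 0.26, limma).

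WNT ligands were mostly dim: 14 of the 18 measured genes of ligands and their secretion lay below the median gene in both groups. WNT2B fell by 1.92 (SE 0.25, adjusted p = 0.0061, limma) and WNT11 by 0.46 (SE 0.08, adjusted p = 0.014), and none was called higher. WNT2B had 3.26 and 2.86 in PRMT6-KO cells, against 5.31 and 4.64 in control cells, all below the median gene; of its 4 probe sets only this one was called over all probe sets, and the mean of the 4 gave -0.66.

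Among 13 R-spondins and further receptors, KREMEN1, a DKK co-receptor, fell by 0.56 (SE 0.11), and FZD9 fell by 0.39 (SE 0.09) at a dim level. KREMEN1 was no longer called when its 5 probe sets were averaged (-0.19, adjusted p = 0.14, limma). FZD9 was no longer called with all probe sets tested (adjusted p = 0.072, limma). Among 8 further secreted antagonists, all below the median gene, DKK2 was called higher (0.31, SE 0.08), a call that held under 1 of 11 alternatives and was lost when its probe sets were averaged (0.13, adjusted p = 0.37, limma). Among 13 nuclear cofactors the corepressor TLE1 rose by 0.71 (SE 0.08) and the acetyltransferase EP300 fell by 0.55 (SE 0.09). Their adjusted p-values from limma ran from 0.0044 for TLE1 to 0.042 for DKK2.

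Of 20 further reported targets 7 were higher and 9 lower, 80.0% called against 24.0% of all genes. Only 1 of the 20 lay below the median gene in both groups, and of all genes above that level 40.9% were called; the list was also chosen with earlier results of these data known. MMP7, a matrix protease of gut tumours, had 6.78 and 6.84 in PRMT6-KO cells, against 5.18 and 5.20 in control cells, and rose by 1.62 (SE 0.08, adjusted p = 0.00053, limma). Its control arrays lay below the median gene, so the 3.08-fold change is approximate. ID2, an inhibitor of differentiation factors, rose by 0.85 (SE 0.07) and the transcription factor SOX4 by 0.80 (SE 0.08). In the other direction, VEGFA, a growth factor for vessels that also responds to hypoxia and cell stress, fell by 1.55 (SE 0.10), to 10.62 and 10.41 in PRMT6-KO cells, against 12.00 and 12.12 in control cells. The adhesion molecule L1CAM fell by 1.30 (SE 0.08) and the urokinase receptor PLAUR by 1.24 (SE 0.09). The dimmer second probe set of L1CAM gave -0.44 and was not called over all probe sets. The only gene-specific probe set of PLAUR was called but gave a smaller fall, -0.49. The 4 genes that did not pass were CCND1, CDX1, NRCAM and PPARD. Several of the 20, VEGFA and MMP7 among them, are known to answer to other pathways as well.

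**Figure D4:**
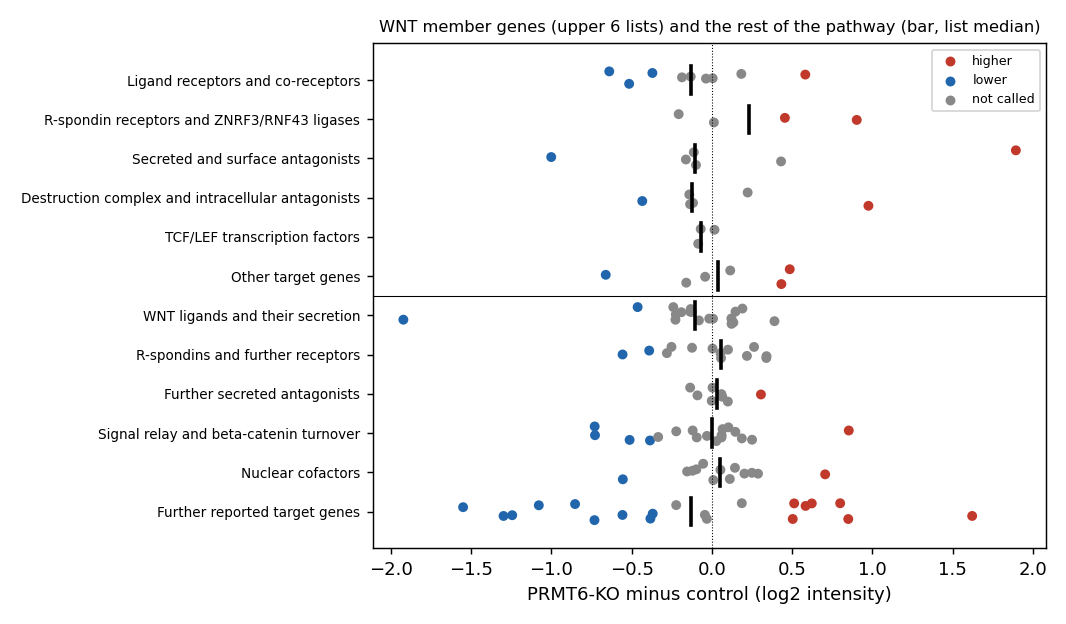
Difference between PRMT6-KO and control cells (log2 intensity, x axis) for each measured gene of the 6 groups of WNT members (above the line) and 6 lists of the rest of the pathway (below); black bars are list medians. The bottom list has 7 genes called higher and 9 lower, spread from -1.55 to 1.62, while its median is -0.13.

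The calls rested on all 4 arrays and in part on the scaling. With control 1 left out 7 of the 13 members remained called, and with control 2 left out 8; with 1 knockout array, whose spread then has to be taken from the controls, 2 remained without knockout 1 (DKK1 and DKK4) and 1 without knockout 2 (DKK1). With the arrays rescaled so that 13 measured reference genes had the same mean on each, the median of all genes moved by -0.34. On the deposited scale 7 of those 13 genes were themselves called higher in PRMT6-KO cells and none lower. Their median difference was 0.33, so they are not known to be stable here. After this rescaling LGR5 (0.12), MYC (0.15), SP5 (0.10) and FZD7 (0.24) stayed above 0 but lost their calls, while DKK1 (1.56), AXIN2 (0.64) and LGR4 (0.56) kept theirs. None of the 13 called members changed sign under any of the alternatives, but most alternatives could not have reversed a sign. Some reuse the same difference, and leaving out 1 array cannot reverse groups that do not overlap. Only the choice of probe sets and the rescalings could have done so.

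**Figure D5:**
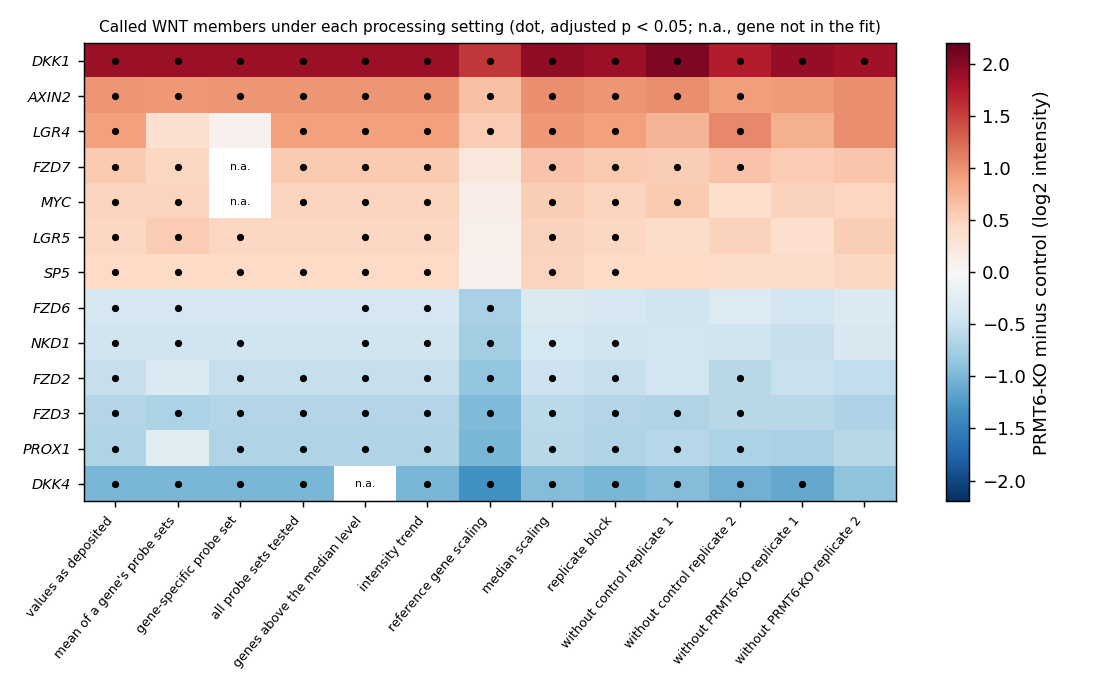
Difference between PRMT6-KO and control cells (colour, log2 intensity) of the 13 called WNT genes (rows) under the values as deposited and each of 12 alternatives (columns); dots mark an adjusted p below 0.05 and n.a. a gene that is not in the fit. DKK1 carries a dot in every column, and the 2 columns without a knockout array carry 2 and 1 dots.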

How the data were processed

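The authors deposited log2 intensities of 54613 probe sets on 4 arrays (RMA and the affy package, per the submitters' processing notes, no version given); their range, 1.64 to 14.16, fits a log2 scale. RMA equalizes the arrays' distributions, so differences are relative to other transcripts, and it compresses dim ones. Detection calls were not used here. Probe sets were named from the platform annotation, with symbols updated through Entrez numbers to RefSeq (GRCh38.p14): 41091 had 1 symbol, 1801 several and 11721 none. For each gene the brightest probe set entered limma 3.58.1 (R 4.3.3) over all 4 arrays, no covariates, with Benjamini-Hochberg adjustment over 19775 genes; 2 residual and 3.27 prior degrees of freedom. The number of arrays limits precision. The test was checked on simulated data with independent noise and far fewer changed genes than were called here. That check required recovery only of changes larger than any member's, so it does not vouch for the smaller calls. The members, lists and alternatives were chosen with earlier results of these data known. All members are named, and in each further list up to 3 called genes per direction, plus genes that complete a count of at most 5. CTNNB1 and some cell type markers are named outside this rule.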

Additional observations from a re-analysis of the deposited data

How the results depend on the processing

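The 12 alternatives gave DKK1 a call each time; AXIN2 and FZD3 lost theirs only with a knockout array left out. With gene-specific probe sets (29 members, since fewer genes have one) 4 members were higher, 1613 genes were higher in all, and LGR4 gave 0.10 and TNKS2, whose own probe set is very dim, 0.0453. Under reference gene scaling 3 members were higher and 22 lower, 6 and 49 of the other pathway genes, and 1008 and 11091 of all genes; rises made up 8.33% of calls there, against 51.9% on the deposited scale. Under it LRP6 (-0.33), RNF43 (-0.32), TCF7L1 (-0.32) and DKK2 (-0.0317) turned negative, as did FZD5 (-0.15), APC (-0.11) and ASCL2 (-0.22). Of these genes only DKK2 was called on the deposited scale. The sign changes follow from the shift of all genes by -0.34, set by reference genes of which several were called higher in PRMT6-KO cells. With single arrays left out, members called higher ranged from 1 to 5 and lower from 0 to 4, other pathway genes from 1 to 8 and from 3 to 9, and all genes from 154 to 1371 and from 354 to 1258. The PRMT6 call was lost with gene-specific probe sets and with all probe sets tested (-0.36; adjusted p = 0.057 and 0.085), with median scaling (-0.31), with the replicate block (-0.36, adjusted p = 0.076) and with any array left out (-0.44 to -0.28). The array numbers in the titles did not clearly pair the samples (correlation of deviations 0.05 over 2 pairs); with the number as a block 12 of 13 members kept their call, FZD6 being lost (adjusted p = 0.074).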

Other observations

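TNKS2 fell by 0.73 on its brightest probe set; the next 2 gave -0.65 and -0.59, both called over all probe sets by limma, and the dimmest, the only gene-specific one, gave 0.05.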
